A study of Mus musculus with 12 samples.

Results

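The kainate receptor family was followed at the mRNA level in the mouse hippocampus through its 5 subunit genes, Grik1 to Grik5, and the genes of its 2 auxiliary subunits, Neto1 and Neto2. The members were taken by gene symbol from the table of expected counts, where all 7 were found among 22236 genes and all 7 passed the filter on low counts, along with 15853 genes in all. Each of the 12 libraries came from the hippocampus of 1 male mouse of 3 to 5 months at injection. The mice were either C57BL/6J (B6) or DBA/2J (D2), inbred strains without other stated alleles. Within each strain, 3 mice had received AAV9-shRNA-Hp1bp3, a viral short hairpin against the chromatin protein gene Hp1bp3 (KD), and 3 had received a scrambled hairpin, AAV-scrmb-shRNA (Ctrl), on both sides of the hippocampus. Tissue was taken at least 6 weeks later. The virus was placed in the dorsal hippocampus, whereas RNA came from the whole structure, so cells without virus were part of every KD sample. In bulk RNA of this kind, fewer cells of a type and less RNA per cell cannot be told apart.

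Kainate receptors are tetrameric glutamate-gated ion channels. The subunits GluK1, GluK2 and GluK3, encoded by Grik1, Grik2 and Grik3, can form channels by themselves, whereas the high-affinity subunits GluK4 and GluK5, encoded by Grik4 and Grik5, require a partner of the first kind. Neto1 and Neto2 are transmembrane proteins that bind the channels and shape their gating and synaptic placement. In the hippocampus, these receptors are best known from the mossy fibre synapse between dentate granule cells and CA3 pyramidal cells, where they act on both sides of the cleft, and from GABAergic interneurons, where Grik1 is enriched.

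The smallest library held 18.2 M expected counts, the median library 32.4 M and the largest 39.4 M. Hp1bp3 itself averaged 9182 ± 308 normalized counts in B6 Ctrl mice (SD, n = 3 for this and every group mean), against 6200 ± 1242 after knockdown, with all KD libraries below all Ctrl libraries, although its adjusted p in B6 was 0.076. In D2 it averaged 6792 ± 258 in Ctrl and 5719 ± 1083 in KD (adjusted p = 1), and the library labelled D2 KD 3 held 6941, within the D2 Ctrl range of 6504 to 7002. Fits without this library are therefore also given for the knockdown in D2, the interaction, the average over strains and the strains within KD. Neuronal markers were high in every library, with a mean pan-neuronal score of 9.96 to 10.4 on the log2(CPM + 1) scale. Choroid plexus markers, from a neighbouring secretory tissue, varied far more, from 2.12 to 6.82 on the same scale and within every group.

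The sequences just upstream of the genes are shown first for Grik3, the only member that passed the test between KD and Ctrl in B6, and for Grik2, another channel-forming subunit gene, which did not. Each run is the 250 bases before the RefSeq transcript start on the GRCm38.p6 assembly, read 5′ to 3′ on the strand of the gene, with capitals marking each GC box. A GC box was searched as GGGCGG on either strand, so that it also appears as its complement. The Grik3 window lies at chr4:125490446-125490695 on the plus strand and the Grik2 window at chr10:49788755-49789004 on the minus strand.
Grik3: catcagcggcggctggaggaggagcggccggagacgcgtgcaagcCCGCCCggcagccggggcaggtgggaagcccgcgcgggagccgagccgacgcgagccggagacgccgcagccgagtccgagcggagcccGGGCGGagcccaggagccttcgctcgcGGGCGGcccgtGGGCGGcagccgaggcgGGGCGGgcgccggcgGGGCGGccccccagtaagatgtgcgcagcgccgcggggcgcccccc
Grik2: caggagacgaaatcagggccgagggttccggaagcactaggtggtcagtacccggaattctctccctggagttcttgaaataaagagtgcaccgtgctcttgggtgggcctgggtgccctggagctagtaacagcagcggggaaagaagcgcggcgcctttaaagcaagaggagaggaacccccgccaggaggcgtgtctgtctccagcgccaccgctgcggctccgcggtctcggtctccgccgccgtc

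The Grik3 window was 82.0% G or C, with 42 CpG dinucleotides and 6 GC boxes. The Grik2 window was 62.8% G or C, with 20 CpG dinucleotides and no GC box. Over all 32851 promoter windows of the same length, the median G or C content was 52.4%, the median number of CpG dinucleotides was 6, and 32.7% held a GC box. The corresponding windows of Grik4, Grik5 and Neto2 were also found. The Grik4 window held 36 CpG dinucleotides and 1 GC box, and the Grik5 window 8 CpG dinucleotides and 2 GC boxes. Neto2 had 2 listed starts, of which the upstream one had 30 CpG dinucleotides and 2 GC boxes in its window and the other had none of either. Among the member windows, the TATA box (TATAAA, in 12.4% of all windows), the cAMP response element (TGACGTCA, 1.55%) and the interferon-stimulated response element (2.98%) were each absent on both strands. The CCAAT box (CCAAT, 33.8% of all windows) was present in 1, the downstream Neto2 window. Such matches describe the letters in the window and are not evidence of binding. Grik1 and Neto1 are named without a window.

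Levels of different genes were compared as normalized counts per kilobase of the union of their annotated exons. In B6 Ctrl hippocampus, Grik5 was the most abundant member at 1507 ± 102 per kb. Grik4 (355 ± 42.4), Grik3 (330.4 ± 41.6), Neto1 (270.1 ± 63.9) and Neto2 (249 ± 33.0) followed, and neighbours among these 4 differed by less than the larger of their SDs. Grik2 was lower at 159 ± 14.6 and Grik1 lowest at 51.3 ± 9.10, each separated from the gene above it by more than its SD. With the longest coding transcript as the length instead, Grik5 stayed first, Grik2 sixth and Grik1 seventh in B6 Ctrl, and Neto1 and Neto2 exchanged places.

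Expressed as a share of the summed level per kb of the 5 subunit genes, Grik5 made up 62.7 ± 1.22% in B6 Ctrl mice and 66.3 ± 1.43% after knockdown. The corresponding shares in D2 were 67.3 ± 5.63% and 66.6 ± 1.45%. For Grik3 the share averaged 13.7 ± 0.960% in B6 Ctrl mice, against 8.01 ± 1.09% after knockdown. All B6 KD libraries, at 6.79 to 8.85%, were below all B6 Ctrl libraries, at 13.1 to 14.8%. In D2 the share of Grik3 was 11.2 ± 2.87% in Ctrl and 12.2 ± 1.52% in KD, and the ranges overlapped. The subunit mixture in mRNA thus held less Grik3 in B6 KD than in the other 3 groups on average. Per kb of exon union, Grik3 stood at rank 3 of the 7 members in B6 Ctrl and at rank 5 in B6 KD, at 172 ± 18.5. It was also at rank 5 in D2 Ctrl, at 273.7 ± 65, and at rank 3 in D2 KD, at 304.4 ± 15.4. The rank in B6 KD depended on the length used, with Grik2 close below at 155.1 ± 13.4. With the longest coding transcript as the length, Grik3 was at rank 6 in B6 KD, below Grik2.

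**Figure D1:**
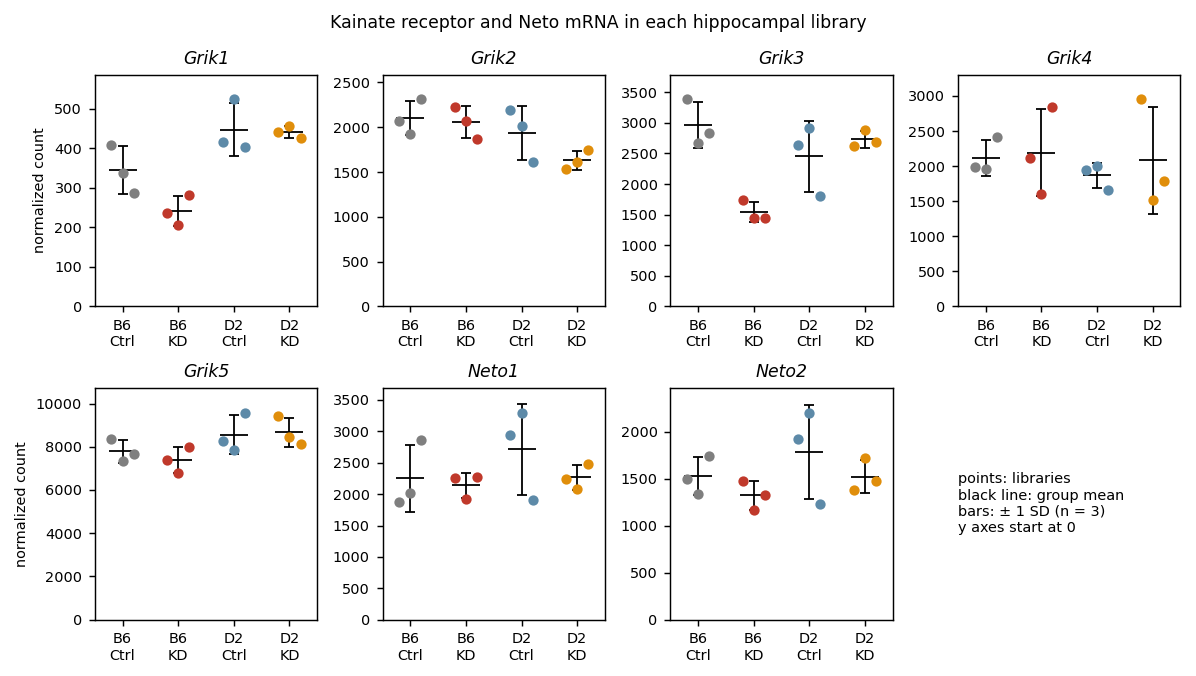
Normalized counts (y axes, starting at 0) of the 7 kainate receptor and Neto genes in each of the 12 libraries, by strain and treatment; points are libraries, black lines group means and bars ± 1 SD (n = 3). Grik3 and Grik1 were lower in all B6 KD libraries than in all B6 Ctrl libraries, and no member separated KD from Ctrl in D2.

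The first comparison asked how Hp1bp3 knockdown altered the channel-forming subunits in B6. Grik3, whose product GluK3 forms low-sensitivity channels with a presynaptic role at mossy fibres, held 3385, 2669 and 2841 normalized counts in the 3 B6 Ctrl libraries and 1734, 1453 and 1442 in the 3 B6 KD libraries. Every KD library was well below the lowest Ctrl library, and the KD mean was 52.0% of the Ctrl mean. The log2 fold change was -0.92 ± 0.16 (SE), with an adjusted p of 0.0333 by the edgeR quasi-likelihood test. Grik3 lies on chromosome 4 of GRCm38 at 125490700 to 125714173 on the plus strand, and its annotated transcript shared no 75-base word with another gene.

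Grik1, whose product GluK1 is best known from interneurons, held 409, 337 and 288 normalized counts in B6 Ctrl and 237, 207 and 282 in B6 KD. The KD libraries were again all lower, but the gap between the groups was narrow, 282 against 288. The log2 fold change of -0.48 ± 0.16 did not pass (adjusted p = 0.122), although DESeq2 called it (adjusted p = 0.0445). Grik2, the most widely expressed channel-forming subunit and a component of postsynaptic receptors on CA3 pyramidal cells, gave no such difference, with 2103 ± 194 in Ctrl and 2055 ± 177 in KD. Its log2 fold change was -0.01 ± 0.12, with an approximate 95% interval of -0.24 to 0.22. Grik1 lies on chromosome 16 at 87895900 to 88290265 and Grik2 on chromosome 10 at 49094833 to 49788766, both on the minus strand.

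The high-affinity and auxiliary subunits did not pass the test in B6. Grik4, which is prominent in CA3 pyramidal cells, held 2116 ± 253 normalized counts in Ctrl and 2190 ± 622 in KD (log2 fold change 0.08 ± 0.25, adjusted p = 0.898). Its KD libraries spread from 1609 to 2846 and enclosed the Ctrl range. Grik5, the broadly expressed partner of the channel-forming subunits, held 7788 ± 527 and 7386 ± 613 (-0.05 ± 0.10, adjusted p = 0.816). For Grik5 the approximate 95% interval of -0.26 to 0.15 bounds the difference most closely among the members. Neto1 held 2256 ± 533 and 2145 ± 199 (-0.05 ± 0.20, adjusted p = 0.921), and Neto2 held 1526 ± 202 and 1325 ± 153 (-0.18 ± 0.19, adjusted p = 0.632). The libraries of the groups overlapped for each of these 4 genes.

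In the whole family, 1 of 7 members was called in B6, where 418 of 15853 genes (2.64%) were called in either direction. Estimates were below 0 for 6 of 7 members, with a median log2 fold change of -0.05 against 0.00 over all genes tested. KD libraries lay entirely below Ctrl libraries for 2 of 7 members, Grik1 and Grik3, and 16.2% of all genes tested showed the same separation in that direction.

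The Grik3 call in B6 depended on the libraries present. It was lost when B6 Ctrl 1 (adjusted p = 0.178), B6 Ctrl 3 (0.125), B6 KD 1 (0.069), B6 KD 2 (0.0985) or D2 Ctrl 1 (0.0532) was left out, and kept when any of the other 7 was left out. In each of the 5 fits that lost it, no gene at all was called, against 418 with all libraries, while the Grik3 estimate stayed between -1.04 and -0.85 on the log2 scale.

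Several tissue marker scores also differed between KD and Ctrl in B6. The CA1 pyramidal score, the mean log2(CPM + 1) of 4 genes, ran from 6.91 to 7.27 in Ctrl and from 6.37 to 6.75 in KD, and all 4 genes had lower estimates, none of them called. The score of 5 dentate granule cell markers ran from 4.91 to 5.51 in Ctrl and from 4.32 to 4.99 in KD, so that the groups overlapped slightly. All 5 dentate markers had lower estimates and none was called: Dsp, Lct and Tdo2 had log2 fold changes of -0.91, -0.92 and -1.09, whereas Prox1 and C1ql2 had -0.02 and -0.03. With the CA1 score as a covariate the Grik3 estimate was -0.84 (adjusted p = 0.642), and with the dentate score it was -0.86 (adjusted p = 0.0708). Both covariates were chosen after the data were seen, and the CA1 score separates the groups, so that the covariate and the treatment share most of their variation. The pan-neuronal score of 6 genes was also lower in all B6 KD libraries, though narrowly, at 9.96 to 10.19 against 10.2 to 10.38 in Ctrl. Of its genes, 4 had lower estimates and none was called, whereas Slc17a7 (0.18) and Map2 (0.01) had higher ones. The CA2, CA3 and interneuron scores overlapped between the B6 groups. Immediate early genes (5), which neurons induce on activity, scored lower in all B6 KD libraries, at 5.02 to 5.73 against 5.90 to 6.27 in Ctrl. All 5 estimates were lower and none was called. Scores of astrocyte (5 genes), microglial (5 genes) and interferon-response (8 genes) lists were higher in all B6 KD than in all B6 Ctrl libraries, the last from 2.35 to 2.64 in Ctrl and from 5.06 to 6.73 in KD. In D2 the CA1 score was lower in all KD libraries only narrowly, at 6.535 to 6.855 against 6.861 to 6.953 in Ctrl. The mean CA1 difference was -0.157 in D2, against -0.544 in B6. The Grik3 estimate in D2 was 0.16. The other scores named here overlapped between the D2 groups. The part of the B6 shifts in the Grik3 difference was not tested beyond the covariates.

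Choroid plexus content divided the B6 libraries in another way. Scores were 2.17 and 2.81 in Ctrl 1 and Ctrl 3 and 2.97 in KD 1, against 5.93 in Ctrl 2 and 6.63 and 6.82 in KD 2 and KD 3. Among the choroid-poor libraries Grik3 held 3385 and 2841 in Ctrl and 1734 in KD, and among the choroid-rich ones it held 2669 in Ctrl and 1453 and 1442 in KD. In each kind of library the KD values were below the Ctrl values, with only 1 or 2 libraries on a side. The part of choroid content in the Grik3 difference was not tested beyond a covariate. With the choroid score as a covariate the estimate was -0.83 (adjusted p = 0.0599).

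**Figure D2:**
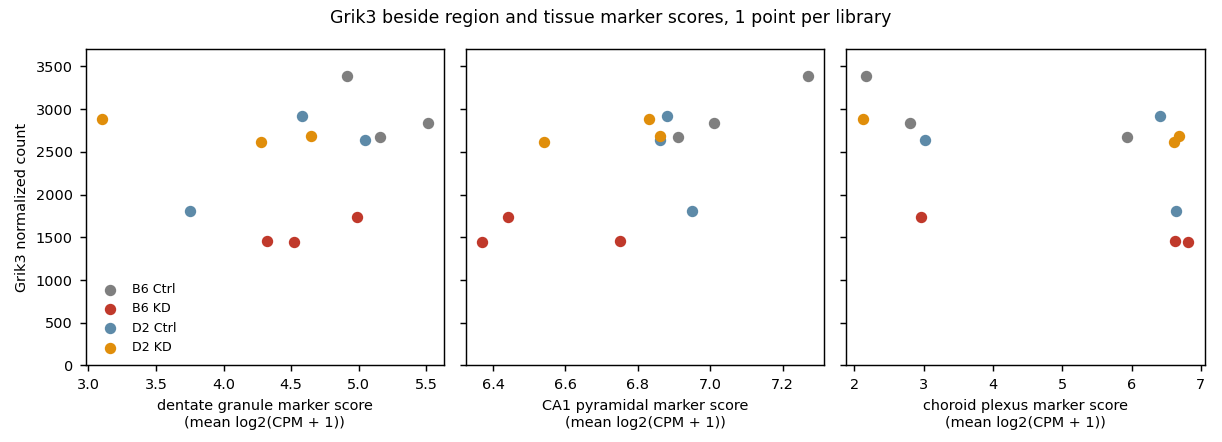
Grik3 normalized count (y axes, starting at 0) against the marker scores of dentate granule cells, CA1 pyramidal cells and choroid plexus (x axes, mean log2(CPM + 1)), with 1 point per library. The B6 KD libraries, at 1442 to 1734, were lower than every other library at any choroid score, and the CA1 scores of B6 KD were below those of B6 Ctrl. The CA1 scores of D2 KD were below those of D2 Ctrl only narrowly, with a highest KD score of 6.855 and a lowest Ctrl score of 6.861.

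The same comparison in D2 showed no member that passed the test. Grik3 held 2644, 2922 and 1803 normalized counts in D2 Ctrl and 2621, 2887 and 2686 in D2 KD. Apart from the low D2 Ctrl 3 library, all D2 values lay near each other, and the KD range fell inside the Ctrl range. The log2 fold change was 0.16 ± 0.16, with an approximate 95% interval of -0.15 to 0.47, and it was -0.02 without D2 Ctrl 3. The D2 Ctrl 3 library also had the lowest dentate score of its group, 3.75 against 4.58 and 5.05, whereas D2 KD 2, at 3.10, had the highest Grik3 count of its group. Interferon-response, astrocyte and microglial scores were each highest of their group in D2 Ctrl 3, and likewise in D2 KD 2. The interferon-response score was 3.95 in D2 Ctrl 3, against 2.57 and 2.61 in the rest of D2 Ctrl. The part of these scores was not tested. Without the library labelled D2 KD 3 the Grik3 log2 fold change was 0.17.

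Grik1 held 416, 524 and 403 in D2 Ctrl and 441, 456 and 427 in D2 KD, a log2 fold change of -0.01 ± 0.16. Estimates for Grik2 (-0.25 ± 0.12), Neto1 (-0.25 ± 0.20) and Neto2 (-0.22 ± 0.19) were below 0, and those for Grik4 (0.16 ± 0.25) and Grik5 (0.02 ± 0.10) above it. Single libraries moved several of these estimates, with Neto1 at -0.09 and Neto2 at -0.04 without D2 Ctrl 2, the same genes at -0.45 and -0.43 without D2 Ctrl 3, and Grik2 at -0.16 without D2 Ctrl 1. Grik4 was at -0.19 without D2 KD 1. All 7 adjusted p-values were 1, and the libraries of the groups overlapped for all 7 members. For comparison, the D2 groups did not overlap, in either direction, for 6.05% of all genes tested. For 3.06%, every D2 KD library was below every D2 Ctrl library. Over all genes in D2, edgeR made 0 calls (0%), and 452 genes had p under 0.05 before adjustment. DESeq2 called 1 gene and limma-voom 0. Without the library labelled D2 KD 3, edgeR called 1 gene, which was not a member. In that fit the estimates were 0.01 for Grik1, -0.30 for Grik2, 0.26 for Grik4 and 0.07 for Grik5. Those for Neto1 and Neto2 were -0.32 and -0.20.

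**Figure D3:**
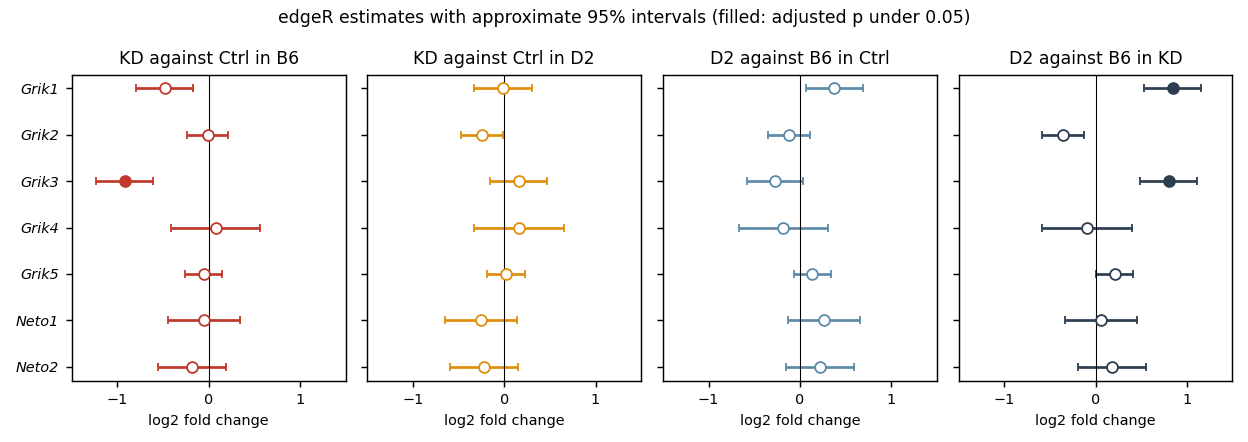
log2 fold changes (x axes) of the 7 members (y axis) in 4 comparisons, with approximate 95% intervals; filled points passed the edgeR test at an adjusted p under 0.05. Grik3 passed between KD and Ctrl in B6, and Grik1 and Grik3 passed between D2 and B6 in KD.

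Whether the knockdown difference itself depended on strain was tested as an interaction. For Grik3 the difference of the D2 and B6 log2 fold changes was 1.08 ± 0.23, from -0.92 in B6 to 0.16 in D2. It was rank 7 of 15853 genes by p, yet its adjusted p was 0.821 by edgeR and 0.898 by limma-voom, while DESeq2 called it (adjusted p = 0.0271). Grik1 gave 0.47 ± 0.23 (adjusted p = 0.843), and the other 5 members ran from -0.24 for Grik2 to 0.09 for Grik4. For the interaction edgeR made 0 calls (0%), and 937 genes had p under 0.05 before adjustment. DESeq2 called 11 genes and limma-voom 0. Without the library labelled D2 KD 3, edgeR again made 0 calls, and the Grik3 difference was 1.09 (adjusted p = 0.976). A strain-dependent response of Grik3 was thus called by 1 of the 3 tools.

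Averaged over strains, KD against Ctrl gave a Grik3 log2 fold change of -0.38 ± 0.11 (adjusted p = 0.110) and a Grik1 log2 fold change of -0.25 ± 0.11 (adjusted p = 0.263). No member passed, and 6 of 7 had estimates below 0, with a median of -0.15 against 0.01 over all genes. DESeq2 called Grik3 here (adjusted p = 0.0266), and so did edgeR without D2 Ctrl 3 (adjusted p = 0.0384). Here edgeR made 0 calls over all genes (0%), and 3046 had p under 0.05 before adjustment, whereas DESeq2 called 1241 genes and limma-voom 0. The edgeR count depended on the libraries present. It was 799 without the library labelled D2 KD 3, 400 without B6 KD 3, 326 without D2 Ctrl 3 and at most 1 without any other. Without D2 KD 3 no member was called, and the Grik3 estimate was -0.37 (adjusted p = 0.116).

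Strain was compared next. Reads of each mouse had been aligned to the genome of its own strain, so that differences between strains in mRNA and in alignment cannot be told apart. In Ctrl mice no member differed between D2 and B6 by the test, where 14.0% of all genes tested did. Grik1 came nearest, at 345 ± 61.1 normalized counts in B6 and 448 ± 66.7 in D2 (log2 fold change 0.38 ± 0.16, adjusted p = 0.183). Grik3 was at 2965 ± 373 in B6 and 2456 ± 583 in D2 (-0.27 ± 0.16, adjusted p = 0.359). The Grik3 estimate was -0.10 without D2 Ctrl 3, -0.41 without D2 Ctrl 2 and -0.17 without B6 Ctrl 1.

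The comparison of the strains within KD was added after the values had been seen. Grik1 was at 242 ± 37.6 normalized counts in B6 KD and 441 ± 14.4 in D2 KD, a log2 fold change of 0.84 ± 0.16 (adjusted p = 0.00406). Grik3 was at 1543 ± 166 in B6 KD and 2731 ± 138 in D2 KD, a log2 fold change of 0.80 ± 0.16 (adjusted p = 0.00517). Both were higher in all 3 D2 KD libraries than in all 3 B6 KD libraries. The libraries also did not overlap for Grik5, which was above, and Grik2, which was below, so that 4 of 7 members separated, against 28.8% of all genes tested in either direction. These 2 of 7 members were called, against 15.0% of all genes tested. They were called in every alternative run, and without the library labelled D2 KD 3 the log2 fold changes were 0.87 (adjusted p = 0.0113) for Grik1 and 0.82 (adjusted p = 0.0152) for Grik3. Grik2 went the other way, at 2055 ± 177 in B6 KD and 1630 ± 107 in D2 KD (-0.35 ± 0.12), but did not pass (adjusted p = 0.0701), except without D2 Ctrl 3. The B6 KD libraries also enter the comparison of KD with Ctrl in B6, so the Grik3 values of both comparisons are not independent.

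Averaged over treatments, Grik1 was called higher in D2, with a log2 fold change of 0.61 ± 0.11 (adjusted p = 0.00213). It was the only member called, where 21.3% of all genes tested were. Its estimate stayed between 0.55 and 0.69 in every alternative, each time called. For Grik3 the averaged difference was 0.27 ± 0.11 (adjusted p = 0.132), and it was called only without D2 Ctrl 3 (0.36, adjusted p = 0.00906).

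The other genes of the pathway were counted from a list of 25 kainate receptor partners, made up of scaffolds, trafficking and ubiquitin or SUMO factors, kinases, RNA-editing enzymes and C1q-like ligands. In B6, 0 of 25 passed between KD and Ctrl by edgeR, and before adjustment 3 had p under 0.05. Over all genes tested in B6, 2.64% were called and 20.6% had p under 0.05 before adjustment. Estimates were below 0 for 18 of 25, with a median of -0.09 against 0.00 over all genes. In D2, 0 of 25 passed, and before adjustment 1 had p under 0.05, against 2.85% of all genes tested. Among the 13 subunit genes of AMPA, NMDA and delta receptors, 0 were called in either strain, and before adjustment 2 in B6 and 0 in D2 had p under 0.05. Their estimates in B6 were below 0 for 11 of 13, with a median of -0.25. Grik3, at -0.92, had the lowest B6 estimate among the members and the genes of both lists.

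**Figure D4:**
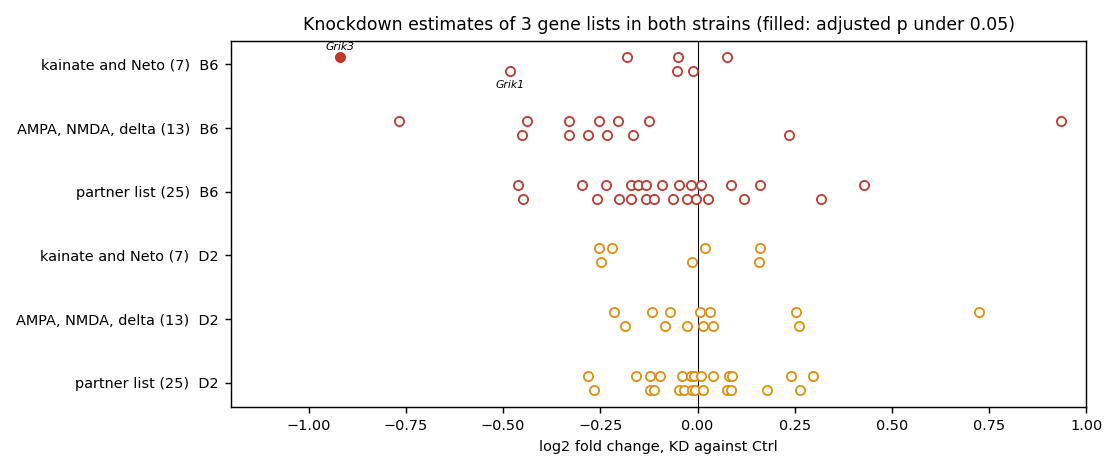
log2 fold changes between KD and Ctrl (x axis) for the 7 kainate receptor and Neto genes, the 13 AMPA, NMDA and delta receptor subunit genes and the 25 partner genes, in B6 and in D2 (y axis, 1 point per gene). Grik3 in B6, at -0.92, is the only filled point, which marks an adjusted p under 0.05.

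Partner genes were also compared between the strains. In Ctrl mice 3 of 25 were called higher in D2 and 2 lower, against 5.23% and 8.75% of all genes tested. In Ctrl mice, those called higher in D2 included Park2, the ubiquitin ligase parkin (log2 fold change 3.04 ± 0.22, adjusted p = 2.77e-06), and C1ql3, a secreted C1q-like synaptic protein (0.69 ± 0.17, adjusted p = 0.0189). The 2 called lower were the scaffold gene Grip1 (-0.70 ± 0.16, adjusted p = 0.0139) and Adar, an RNA-editing enzyme (-0.26 ± 0.07, adjusted p = 0.0358). Of the 13 other subunit genes, 3 were called lower in D2 and 0 higher. Those called lower included Grin2b (-4.07 ± 0.28, adjusted p = 2.18e-06) and Grid1 (-0.65 ± 0.09, adjusted p = 0.000602). Grin2b, an NMDA receptor subunit gene, held 21270 ± 4860 normalized counts in B6 Ctrl and 1268 ± 212 in D2 Ctrl. For these genes too, including Grin2b and Park2, differences between strains in mRNA and in alignment cannot be told apart.

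Variation among libraries of the same group was described by correlation over the 12 libraries after the group means had been subtracted, on the log2(CPM + 1) scale. These libraries share dissection, depth and tissue content, and no test was made. Grik3 and Neto2 varied together (r = 0.847, rho = 0.748), as did Neto1 and Neto2 (r = 0.808, rho = 0.741). Grik2 varied with Neto2 (r = 0.755) and Neto1 (r = 0.743) and oppositely to Grik5 (r = -0.608). Grik4 followed the CA3 pyramidal score (r = 0.801, rho = 0.741) and ran against the CA1 score (r = -0.785, rho = -0.776). It also ran against the oligodendrocyte precursor score (r = -0.703, rho = -0.636). Other members varied with glial scores as well, and Grik2 varied most closely with the oligodendrocyte score (r = 0.765, rho = 0.706). Neto1 ran against the microglial score (r = -0.708, rho = -0.692) and Grik5 against the oligodendrocyte score (r = -0.659, rho = -0.545). Grik1 followed the interneuron score (r = 0.730, rho = 0.748) and, with a similar r, the CA2 pyramidal score (r = 0.728, rho = 0.594). Within groups Grik3 varied most closely with the pan-neuronal score (r = 0.685, rho = 0.629), followed by the CA2 pyramidal score (r = 0.590, rho = 0.517), and oppositely to the choroid plexus score (r = -0.558, rho = -0.629). It was less correlated with the dentate score (r = 0.325, rho = 0.343) and the CA1 score (r = 0.0927, rho = 0.189).

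By the same measure, among the 14180 genes whose mean CPM reached 1, those most like Grik3 were Rbm15b (r = 0.953, and 0.921 without the 2 libraries farthest from the median), Spcs3 (0.943 and 0.828) and Lin28b (0.933 and 0.854). The gene most like Grik1 was Pfdn2 (r = 0.914), and the one most like Grik2 was Ints10 (r = 0.973). Grik4 was most like Nt5dc3 (r = 0.961) and Grik5 most like Tuba1a (r = 0.971). Neto1 was most like Ate1 (r = 0.986) and Neto2 most like Slc9a4 (r = 0.983). These values rank genes by likeness over 12 libraries, and values this high are the top of many genes compared.

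Among the remaining members, Grik4 lies on chromosome 9 at 42518135 to 42944493, Grik5 on chromosome 7 at 25009849 to 25072346 and Neto2 on chromosome 8 at 85636588 to 85700924, all on the minus strand. Neto1 lies on chromosome 18 at 86394952 to 86506718 on the plus strand. It shared 146 of its 8421 75-base words (1.73%) with AC113599.1, an antisense gene, and strand use in counting was not given in the sources used here. Grik2 shared 10 of 13595 words (0.0736%) with other genes, and Grik1, Grik4, Grik5 and Neto2 shared none.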

How the data were processed

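mRNA libraries of 12 hippocampi, 3 per strain and treatment, were analysed. The authors filtered and trimmed reads, aligned them to the genome of each mouse's own strain and deposited RSEM expected counts per gene, which are not normalized (RSEM 1.2.12, Bowtie2 2.2.0 and GRCm38 per the submitters' processing notes). Per the labels, runs were joined for most libraries. The deposited signal per gene is the authors' DESeq2 normalized count, and dividing out its size factors gave whole reads for 100% of 266784 values (within 0.01 read). The edgeR test on those reads was an added alternative and called 425 genes in B6. Annotation release and strand use are not given in the sources used here. Normalized counts are printed as levels.

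Expected counts were rounded, filtered with filterByExpr and tested by the edgeR quasi-likelihood method (glmQLFTest, version 4.0.16, R 4.3.3, TMM, robust, a mean for each of the 4 groups, all 12 libraries). Benjamini-Hochberg adjusted p-values under 0.05 over all 15853 genes were called. Standard errors and 95% intervals are approximate. Alternatives used DESeq2 1.42.0, limma-voom (limma 3.58.1), other scalings and filters, covariates, and fits without 1 library. Scores are means of log2(TMM CPM + 1). Coordinates are from GENCODE M21 on GRCm38, and promoter windows from RefSeq. How far variation among the 3 mice of a group and counting error each limit precision was not tested. Grik1, the member with the fewest counts, held from 158 (B6 KD 2) to 578 (D2 KD 2) expected counts per library. Replicate numbers follow deposit order and pair nothing.

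The members, both gene lists and the tests were chosen with earlier results of these data known. All 7 members are named in every comparison; genes of the 2 lists are named only where called between KD and Ctrl in B6, averaged over strains, or between strains in Ctrl (up to 6 with the largest change), and some that qualify are not reported here; and the 3 genes most like a member are ranked, of which 1 is printed for members other than Grik3.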

Additional observations from a re-analysis of the deposited data

How the results depend on the processing

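The number of members called between KD and Ctrl in B6 was 1 (Grik3) with DESeq2 size factors, without a filter, with the newer quasi-likelihood method, with truncated counts, with limma-voom and with the 6 B6 libraries alone. It was 2 (Grik1 and Grik3) with DESeq2, and 0 with total count, choroid score, dentate score or CA1 score as a covariate, and it ran from 0 to 1 when 1 library was left out. The dentate and CA1 covariates and the truncated counts were chosen after seeing the data. Genes called in B6 numbered 418 in the reported fit, 1688 with DESeq2, 368 with limma-voom, 8 with the dentate covariate and 0 with each of the other 3 covariates. The cause of these changes was not tested. For KD averaged over strains, 1 member (Grik3) was called with DESeq2, and 0 to 1 when 1 library was left out. For the interaction, DESeq2 called 1 (Grik3). For D2 against B6 averaged over treatments, 1 to 2 were called when 1 library was left out. Member counts for KD against Ctrl in D2 and D2 against B6 in Ctrl were 0 under every alternative.

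The log2 fold change of Grik2 in B6 (-0.01) was 0.0523, 0.0879 and 0.0382 with the choroid, dentate and CA1 covariates and -0.101 to 0.0375 when 1 library was left out. Grik4 in B6 (0.08) was -0.00882 and -0.881 with the choroid and CA1 covariates and -0.196 to 0.237 when 1 library was left out. Neto1 in B6 (-0.05) was 0.16 with the dentate covariate and -0.200 to 0.137 when 1 library was left out. In D2, Grik1 (-0.01) was 0.0214 with limma-voom and -0.0795 to 0.11 when 1 library was left out, Grik3 (0.16) was -0.0183 to 0.299, and Grik4 (0.16) was -0.14 with the CA1 covariate and -0.186 to 0.345 when 1 library was left out. Grik5 in D2 (0.02) was -0.0411, -0.00983 and -0.0105 with the total count, dentate and CA1 covariates and -0.055 to 0.115 when 1 library was left out. None of these estimates passed the test in any alternative. Of the alternative estimates of the members' log2 fold changes, 505 kept direction and side of the threshold, 25 changed sign, 9 (all Grik3 in B6) no longer passed and 5 newly passed.

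No paired analysis was possible because replicate numbers were given in deposit order and match no animals, litters or days across groups. With 3 mice a group, the standard errors of the B6 knockdown estimates were largest for Grik4 (0.25), Neto1 (0.20) and Neto2 (0.19) among the members.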
